A study of Mus musculus with 20 samples.

Results

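Immediate early, stress and heat shock genes were followed across 4 sorted populations of mouse mammary cells. The set held 36 genes, chosen by symbol, and all 36 had a line in the deposited count table of 46603 genes. All 36 were among the 17236 genes tested after the filter on low counts. They fell into 5 groups by role, with 9 AP-1 and ATF factors, 7 EGR and NR4A factors with Myc, 9 feedback regulators, 4 genes of growth arrest and translation stress, and 7 heat shock genes.

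The animals were virgin FVB/N female mice of 6 to 8 weeks, untreated as far as the labels say, and numbered 2 to 6. Cells of the fourth inguinal glands were dissociated and depleted of lineage-positive cells. Mammary repopulating units (MRU) lie in the CD24-medium, CD49f-high gate, where basal cells are enriched. Within it were sorted the CD200+CD200R1+ MRU and the remaining MRU, labelled as neither CD200-positive nor CD200R1-positive in the description and as not positive for the pair in the title. Outside it were sorted the CD200+ non-MRU, negative for CD200R1, and the CD200R1+ non-MRU, negative for CD200. Each population came from the same 5 mice, with 1000 cells and 1 polyA RNA library per mouse, which gave 20 libraries. About 10% of the cells of the CD200R1+ non-MRU library of mouse 4 came from mouse 3, per the labels.

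Library totals ran from 10853587 to 13862963 counts. The labels call all samples epithelial cells, and summed levels of 8 markers each were used to check this. Basal markers summed to 13013 to 23361 CPM (a gene's counts relative to the scaled size of its library) for CD200+CD200R1+ MRU, 10980 to 17576 for remaining MRU, 307 to 981 for CD200+ non-MRU and 78.1 to 198 for CD200R1+ non-MRU. Luminal markers were highest in CD200+ non-MRU, at 11560 to 20696 CPM, but fibroblast markers summed there to 8358 to 19757 CPM and lymphocyte markers to 1508 to 3091 CPM, the highest of the 4 populations for the lymphocyte list. In CD200R1+ non-MRU the luminal markers summed to only 39.2 to 157 CPM and the fibroblast markers to 80965 to 113510 CPM, which goes against the epithelial label. In bulk libraries, fewer cells of a type and less RNA per cell cannot be told apart.

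Immediate early genes are transcribed within minutes of a growth factor or a stress, from signalling proteins that are already in the cell. Most encode transcription factors, and others encode phosphatases and RNA-binding proteins that end the response. Heat shock genes encode chaperones, which bind unfolded proteins, and their transcription is driven by heat shock factor. Cells taken from solid tissue by enzymes are known to switch on both kinds of gene. All libraries here came from dissociated cells, so a level in the gland and a response to dissociation cannot be told apart.

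Levels are CPM scaled by TMM, a factor per library that corrects for its composition, and values in every library are listed in the order of mice 2 to 6. Adjusted p-values are from edgeR's quasi-likelihood test with Benjamini-Hochberg adjustment over all genes tested, called below 0.05, and ± after a fold change is its standard error. The 6 comparisons between populations share libraries, so each is given by its own values.

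Together the 36 genes took 2.58% ± 0.28 of all counts for CD200+CD200R1+ MRU, 3.14% ± 0.15 for remaining MRU, 2.51% ± 0.13 for CD200+ non-MRU and 2.01% ± 0.26 for CD200R1+ non-MRU (SD, n = 5 each). The 5 libraries of remaining MRU, at 2.94% to 3.36%, overlapped with CD200+CD200R1+ MRU only through mouse 2, which had 3.06% there. Fos alone took 0.724%, 0.799%, 0.507% and 0.304% of counts in the same order of populations. These are shares of unscaled counts. With TMM scaling, CD200R1+ non-MRU no longer had the lowest mean for the sum of the 36 genes. It still did for Fos, at 3790 ± 1080 CPM, against 4670 ± 492 in CD200+ non-MRU. Summed scaled levels of the 36 genes were 23917 ± 3384 CPM for CD200+CD200R1+ MRU, 29720 ± 1314 for remaining MRU, 23183 ± 1046 for CD200+ non-MRU and 24897 ± 3871 for CD200R1+ non-MRU (SD, n = 5 each). The sums were not tested. They overlapped between CD200+CD200R1+ MRU (20840 to 29331), CD200+ non-MRU (22040 to 24459) and CD200R1+ non-MRU (22208 to 31583). For Fos, CD200+ non-MRU over CD200R1+ non-MRU was then 1.23-fold and not called (adjusted p = 0.124). Per kilobase of exon, Fos led the 36 genes in every population, with 2850 CPM per kilobase for CD200+CD200R1+ MRU, 3220 for remaining MRU, 1990 for CD200+ non-MRU and 1610 for CD200R1+ non-MRU. Egr3 was last in every population, at 0.318, 0.356, 0.241 and 0.172 CPM per kilobase.

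**Figure D1:**
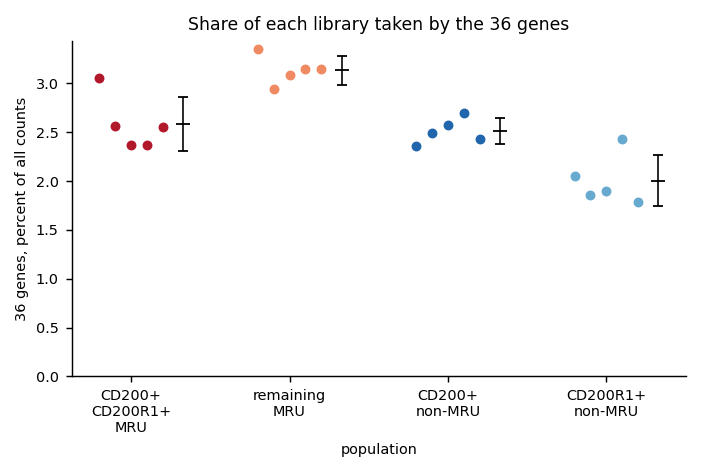
Percent of all counts taken by the 36 genes in each library (points, mice 2 to 6 from left to right) by population, with the mean and SD beside them. The remaining MRU average 3.14% and the CD200R1+ non-MRU 2.01% of unscaled counts. With TMM scaling the lowest mean is that of CD200+ non-MRU, but its libraries overlap with those of CD200+CD200R1+ MRU and CD200R1+ non-MRU.

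In an F test among the 4 populations, 28 of the 36 genes differed, against 69.5% of all genes tested. The genes did not share 1 order of populations. The mean was highest in remaining MRU for 16 genes, in CD200R1+ non-MRU for 9, in CD200+CD200R1+ MRU for 6 and in CD200+ non-MRU for 5. These are ranks of means, genes that did not pass the F test included, and ranks over all genes were not counted. Of the 16, only Fosl2 (adjusted p = 0.0104) and Nr4a2 (0.0466) passed between remaining MRU and the second population. The others did not, as for Hspb1 (0.882) and Jun (0.929). Hspb1 had the widest span, 11.5-fold between the highest and the lowest population mean, followed by Nr4a2 with 6.91-fold and Ier3 with 3.01-fold. The 8 genes that did not pass were Fosl1, Jund, Maff, Egr3, Dusp1, Hspa1a, Hspa1b and Hsph1.

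**Figure D2:**
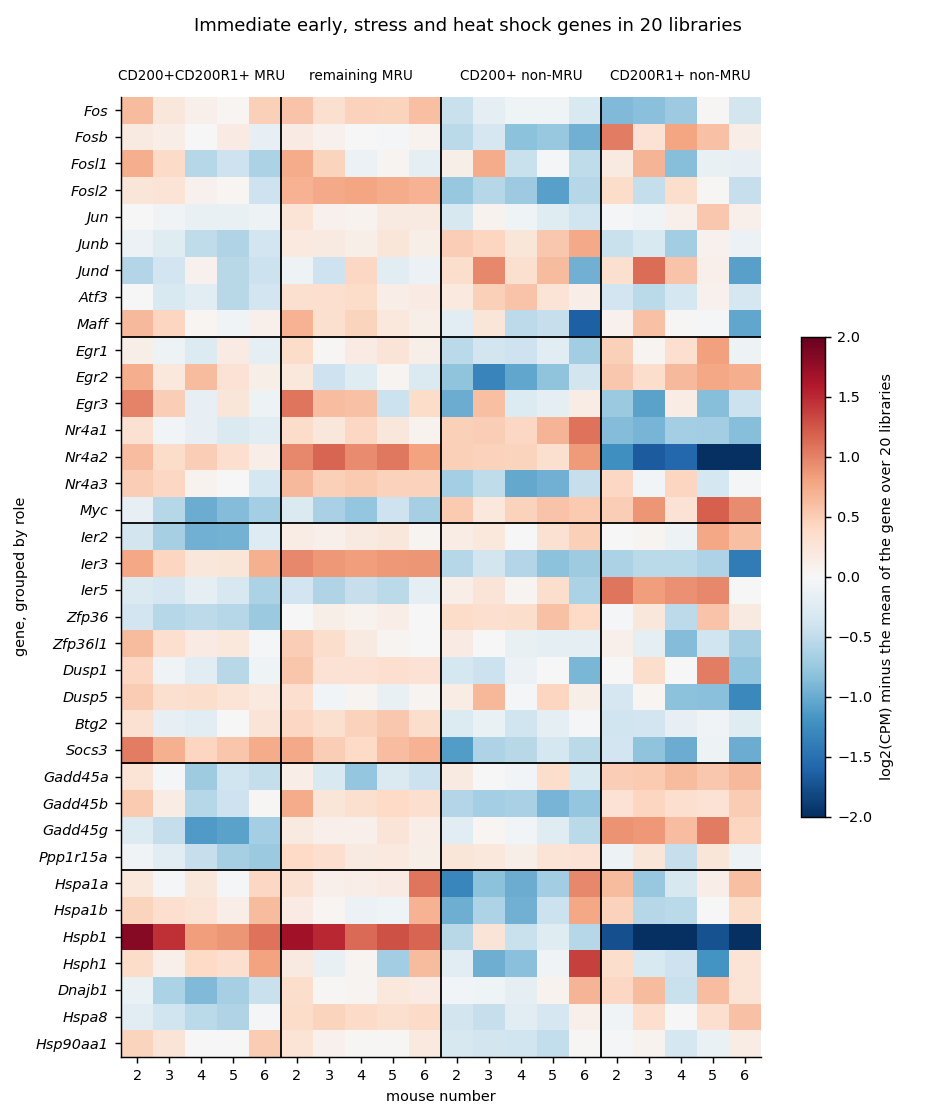
Level of each of the 36 genes (rows, grouped by role) in each of the 20 libraries (columns, by population and mouse), as log2 CPM minus the mean of that gene over the 20 libraries. Hspb1 and Nr4a2 show the widest span, and Hspa1a, Hspa1b and Hsph1 are high in mouse 6.

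Within the MRU gate, 9 of the 36 genes were lower in CD200+CD200R1+ MRU than in remaining MRU and none was higher in the reported edgeR fit. Of all genes tested, 8.26% were called in either direction, and 6.64% were called lower and 1.62% higher. The median log2 fold change was -0.24 over the 36 genes and 0.02 over all genes tested. The 9 were Gadd45g, Ier2, Hspa8, Dnajb1, Fosl2, Ppp1r15a, Zfp36, Atf3 and Junb, with log2 fold changes of -0.85 to -0.53. At an unadjusted p below 0.05, 16 genes were lower and 1 was higher, and after adjustment limma voom called 12 lower and 1 higher and DESeq2 11 lower and 1 higher. The gene higher in those counts was Egr2, at a log2 fold change of 0.53 ± 0.17 (adjusted p = 0.0533). Other edgeR fits called Egr2 higher too, as with DESeq2 size factors, library size alone, the mouse as a block or only the libraries compared. Shares of all genes at an unadjusted p, by limma voom and by DESeq2 were not counted.

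The libraries did not overlap for 13 of the 36 genes, all lower in CD200+CD200R1+ MRU, and 12.3% of all genes tested had no overlap in either direction. Gadd45g, which answers stress and slows the cell cycle, fell most of the 9, 1.80-fold. Ier2, a nuclear immediate early protein, had 678, 549, 449, 454 and 725 CPM in CD200+CD200R1+ MRU, against 966, 932, 989, 1020 and 900 CPM in remaining MRU. It was 1.68-fold lower (log2 fold change -0.75 ± 0.17, adjusted p = 0.00619). Atf3, a stress-induced factor of the ATF family, had 1030, 838, 892, 704 and 797 CPM in CD200+CD200R1+ MRU, against 1290, 1310, 1340, 1140 and 1160 CPM in remaining MRU. Each Atf3 and Ier2 library of remaining MRU was above every one of CD200+CD200R1+ MRU. Across the 9 genes, the libraries of CD200+CD200R1+ MRU spread more than those of remaining MRU, as for Fosl2, with SDs of 25.2 and 6.79 CPM.

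Dnajb1 (log2 fold change -0.70 ± 0.19, adjusted p = 0.0237) lost its call when mouse 3, 4 or 5 was left out of CD200+CD200R1+ MRU, or mouse 2 or 5 out of remaining MRU (adjusted p = 0.0591 to 0.0886; 0.00252 to 0.0886 across its 18 alternatives). Junb (-0.53 ± 0.14, adjusted p = 0.018) lost it when mouse 4 or 5 was left out of CD200+CD200R1+ MRU, or mouse 5 out of remaining MRU (adjusted p = 0.0552 to 0.0721; 0.00355 to 0.0721 across its 18 alternatives). The other 7 genes passed under every alternative. In the fit blocked by mouse, Egr2 passed as higher (log2 fold change 0.54, adjusted p = 0.0249), and Nr4a2 (-0.61, 0.0388), Btg2 (-0.38, 0.0386) and Gadd45b (-0.46, 0.046) passed as lower.

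Markers of other cell types differed between the same libraries. Summed endothelial markers stood at 56.9 to 192 CPM in CD200+CD200R1+ MRU, against 1684 to 2279 CPM in remaining MRU, and all 8 were lower in CD200+CD200R1+ MRU by mean. Pericyte markers stood at 44.4 to 94.9 CPM in CD200+CD200R1+ MRU, against 529 to 770 CPM in remaining MRU, again lower for all 8. Adipocyte markers stood at 168 to 381 CPM in CD200+CD200R1+ MRU, against 4088 to 5895 CPM in remaining MRU, lower for 7 of 8, with Adipoq and Cidec each at 0 counts in 1 library of CD200+CD200R1+ MRU. Fabp4 made up most of that sum, at 248 CPM in CD200+CD200R1+ MRU and 4760 CPM in remaining MRU by mean. In remaining MRU, Adipoq, Plin1, Cidec and Lep averaged only 0.825 to 4.39 CPM, so the sum does not measure adipocytes as such. Macrophage markers stood at 1383 to 2855 CPM in CD200+CD200R1+ MRU, against 714 to 1206 CPM in remaining MRU, higher for all 8. Lymphocyte markers stood at 420 to 645 CPM in CD200+CD200R1+ MRU, against 242 to 386 CPM in remaining MRU, higher for 6 of 8. Basal markers overlapped between the populations, and all 8 were higher by mean in CD200+CD200R1+ MRU, as for Krt14, at 1880 CPM against 1370 CPM in remaining MRU. The mitochondrial share of counts averaged 4.31% in CD200+CD200R1+ MRU, against 3.74% in remaining MRU. The part of these differences in the fall of the 9 genes was not tested.

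**Figure D3:**
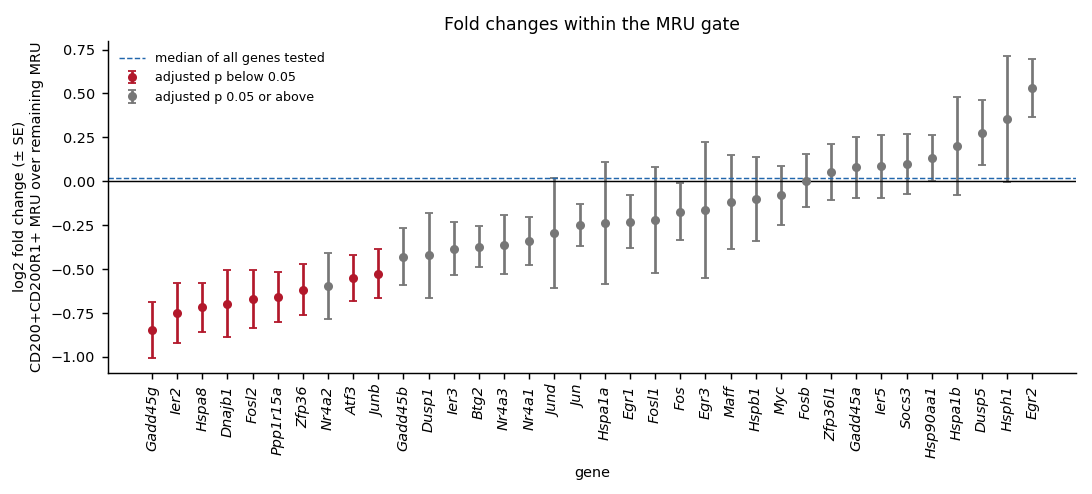
Log2 fold change of each of the 36 genes in CD200+CD200R1+ MRU over remaining MRU, with its standard error, ordered from lowest to highest. The 9 genes below an adjusted p of 0.05 lie between -0.85 and -0.53, and the dashed line marks the median of all genes tested, 0.02.

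Outside the MRU gate, 17 of the 36 genes differed between CD200+ non-MRU and CD200R1+ non-MRU, against 52.5% of all genes tested. Of the 36, 6 were higher (all genes 23.8%) and 11 lower (28.6%). Set against CD200+ non-MRU, CD200+CD200R1+ MRU differed for 20 genes (all genes 48.5%), 11 higher (23.9%) and 9 lower (24.6%). Remaining MRU also differed from CD200+ non-MRU for 20 genes (all genes 44.1%), 17 higher (24.1%) and 3 lower (20.1%). Set against CD200R1+ non-MRU, CD200+CD200R1+ MRU differed for 20 genes (all genes 46.8%), 9 higher (22.8%) and 11 lower (24%). Remaining MRU differed from CD200R1+ non-MRU for 19 genes (all genes 44.1%), 13 higher (22.4%) and 6 lower (21.6%). The totals in either direction, 47.2% to 55.6% of the 36 genes, lie near the shares of all genes. By direction the split was less even than that of all genes for remaining MRU over CD200+ non-MRU, with 17 higher and 3 lower. In the same order of comparisons, libraries did not overlap for 13 genes (all genes 33.1%), 16 (36.6%), 17 (36.8%), 12 (31.2%) and 16 (31.9%). Median log2 fold changes over the 36 genes in these 5 comparisons were -0.15, 0.26, 0.44, -0.01 and 0.22, and over all genes tested they were -0.06, -0.03, 0.01, 0.01 and 0.03.

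The counts against CD200R1+ non-MRU depended on the scaling, because TMM factors averaged 0.809 there and 1.06 to 1.08 in the other populations. With library size alone, CD200+ non-MRU had 13 genes higher and 6 lower than CD200R1+ non-MRU, CD200+CD200R1+ MRU had 18 higher and 5 lower, and remaining MRU had 21 higher and 3 lower. The same change moved the all-gene median, on the log2 scale, to 0.37, 0.43 and 0.41 in these comparisons. Changes against CD200R1+ non-MRU are thus relative to the TMM scaling.

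**Figure D4:**
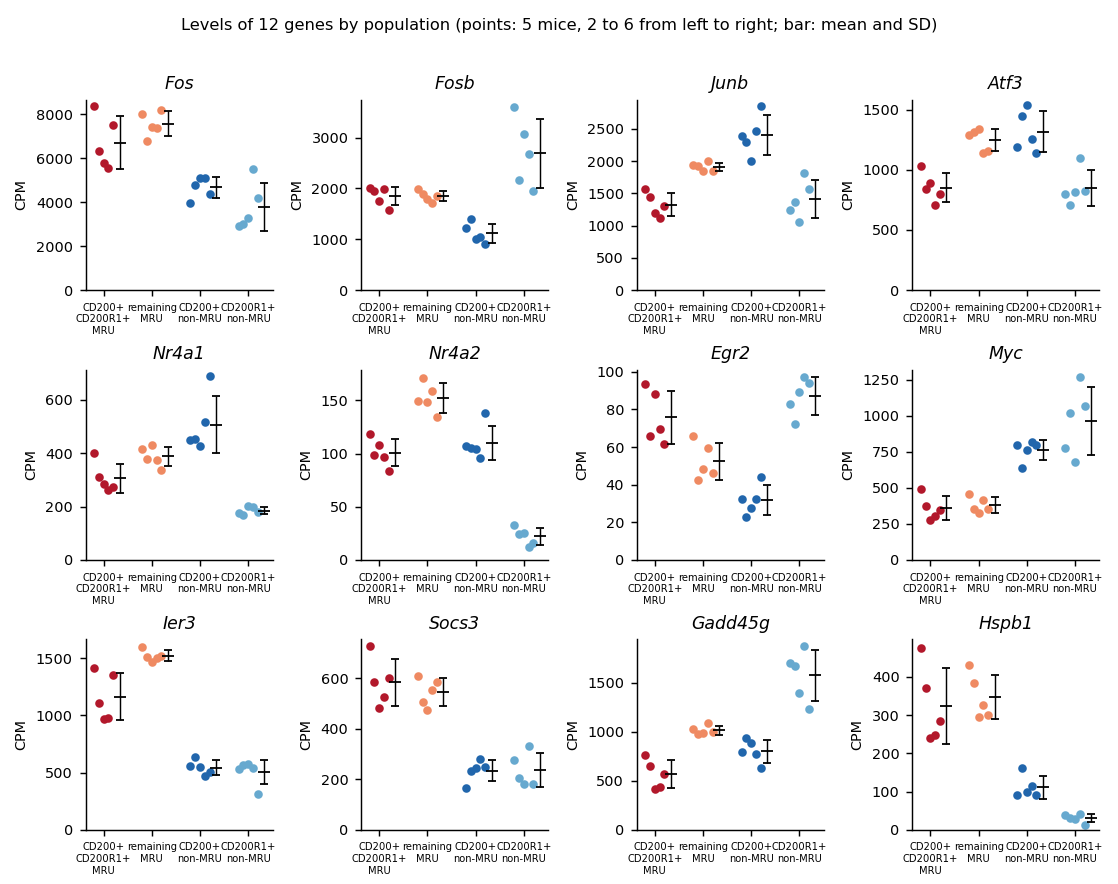
CPM of 12 of the 36 genes in every library (points, mice 2 to 6 from left to right) by population, with the mean and SD beside them and each axis starting at 0. Nr4a2 and Hspb1 are lowest in CD200R1+ non-MRU, Ier3 and Socs3 are high in both MRU populations, and Myc is high in both non-MRU populations.

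AP-1 is a dimer of a Fos and a Jun family protein, and its subunits gave the most counts of the set. Fos had 8380, 6320, 5780, 5560 and 7510 CPM in the CD200+CD200R1+ MRU libraries, 8020, 6770, 7440, 7400 and 8220 in those of remaining MRU, 3970, 4800, 5120, 5090 and 4380 in CD200+ non-MRU libraries and 2940, 3030, 3280, 5500 and 4190 in CD200R1+ non-MRU libraries. Every MRU library was above every non-MRU library. The log2 fold change over CD200R1+ non-MRU was 0.83 ± 0.16 in CD200+CD200R1+ MRU (adjusted p = 0.000249), and that over CD200+ non-MRU was 0.52 ± 0.16 (adjusted p = 0.0113). Remaining MRU stood 0.70 ± 0.16 above CD200+ non-MRU on the log2 scale (adjusted p = 0.00146).

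Fosb, a close relative of Fos, ran in another order. It had 2010, 1950, 1760, 1980 and 1580 CPM in the CD200+CD200R1+ MRU libraries, 1980, 1890, 1790, 1720 and 1860 in those of remaining MRU, 1220, 1400, 1000, 1050 and 915 in CD200+ non-MRU libraries and 3610, 2160, 3080, 2670 and 1950 in CD200R1+ non-MRU libraries. CD200+ non-MRU, with the lowest values, did not overlap with CD200R1+ non-MRU and was 2.41-fold lower (log2 fold change -1.27 ± 0.16, adjusted p = 6.1e-07). Both MRU populations were also lower than CD200R1+ non-MRU, by a log2 fold change of -0.54, and lost that call with library size alone (adjusted p = 0.525 for CD200+CD200R1+ MRU and 0.386 for remaining MRU). Fosb did not differ detectably within the MRU gate, at a log2 fold change of 0.00 ± 0.15.

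Fosl2, a Fos family member without the strong activation domain of Fos, had 163, 166, 145, 141 and 103 CPM in the CD200+CD200R1+ MRU libraries, 223, 233, 237, 229 and 221 in those of remaining MRU, 81.4, 92.2, 82.6, 64.5 and 91.9 in CD200+ non-MRU libraries and 177, 99.1, 175, 140 and 99.4 in CD200R1+ non-MRU libraries. Remaining MRU had the highest values and overlapped with no other population. Its log2 fold change over CD200+ non-MRU was 1.47 ± 0.17 (adjusted p = 4.06e-07). CD200+ non-MRU was lower than CD200R1+ non-MRU (-0.74 ± 0.17, adjusted p = 0.000711), a call lost with library size alone (adjusted p = 0.108).

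Among the Jun proteins, Junb is known to limit the activity of Jun. Junb had 1570, 1440, 1200, 1120 and 1300 CPM in the CD200+CD200R1+ MRU libraries, 1940, 1920, 1840, 2000 and 1850 in those of remaining MRU, 2390, 2290, 2000, 2470 and 2860 in CD200+ non-MRU libraries and 1250, 1370, 1050, 1810 and 1570 in CD200R1+ non-MRU libraries. CD200+ non-MRU, the highest, was 1.70-fold above CD200R1+ non-MRU (log2 fold change 0.77 ± 0.14, adjusted p = 8.65e-05). Atf3 was likewise highest in CD200+ non-MRU by mean, at 1320 ± 170 CPM, against 850 ± 148 CPM in CD200R1+ non-MRU (adjusted p = 0.000383). Blocking by mouse, Junb was lower in remaining MRU than in CD200+ non-MRU (-0.32, adjusted p = 0.0431). Prdx2, on the other strand, covers 7.5% of Junb exons, with 1725 to 3359 counts a library against 11318 to 35072 for Junb.

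Jun itself varied little, with population means of 494 to 629 CPM. It was lower in CD200+ non-MRU than in CD200R1+ non-MRU (log2 fold change -0.33 ± 0.12, adjusted p = 0.0235), but the sign turned with library size alone (0.09), and the call was lost with no filter, with only the libraries compared, without CD200+ non-MRU of mouse 2 or 6, without CD200R1+ non-MRU of mouse 5 and without mouse 6. The F test of Jun among populations (adjusted p = 0.0268) was lost under 6 of 27 alternatives, at up to 0.0898. Maff, a small Maf protein that pairs with AP-1-like factors, was higher in remaining MRU than in CD200+ non-MRU (0.77 ± 0.27, adjusted p = 0.0247; 0.0501 without remaining MRU of mouse 2). Under the block by mouse, Maff also differed among the populations (adjusted p = 0.0034) and was higher in CD200+CD200R1+ MRU than in CD200+ non-MRU (0.74, adjusted p = 0.00401). Jund and Fosl1 passed in none of the 6 comparisons. The antisense gene Gm11175 covers 52.6% of Jund exons and had 0 counts in every library, and Ccdc85b covers 57.2% of Fosl1 exons with 154 to 1395 counts a library, against 448 to 1803 for Fosl1. Since the strand setting of the counting is not given in the sources used here, Fosl1 and Ccdc85b reads may not be separated, and the level of Jund is uncertain too.

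The NR4A genes encode nuclear receptors that act without a known natural ligand, and the 3 of them were ordered differently. Nr4a2 had 118, 98.7, 108, 96.4 and 83.8 CPM in the CD200+CD200R1+ MRU libraries, 149, 171, 148, 159 and 134 in those of remaining MRU, 107, 105, 104, 95.6 and 138 in CD200+ non-MRU libraries and 32.7, 24.2, 25.7, 11.9 and 15.8 in CD200R1+ non-MRU libraries. CD200R1+ non-MRU lay below every other library. The log2 fold change over CD200R1+ non-MRU was 2.19 ± 0.20 in CD200+CD200R1+ MRU (adjusted p = 7.03e-09), 2.79 ± 0.20 in remaining MRU (2.54e-10) and 2.32 ± 0.20 in CD200+ non-MRU (4.18e-09).

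Nr4a1 had 399, 309, 286, 263 and 275 CPM in the CD200+CD200R1+ MRU libraries, 416, 378, 429, 376 and 338 in those of remaining MRU, 448, 454, 427, 515 and 687 in CD200+ non-MRU libraries and 176, 169, 202, 199 and 179 in CD200R1+ non-MRU libraries. It was also lowest in CD200R1+ non-MRU, but highest in CD200+ non-MRU, which stood 2.73-fold above CD200R1+ non-MRU (log2 fold change 1.45 ± 0.14, adjusted p = 2.24e-08). Nr4a3 was lowest in CD200+ non-MRU instead, at 56.6 ± 9.79 CPM against 100 ± 23.1 CPM in CD200R1+ non-MRU (log2 fold change -0.83 ± 0.17, adjusted p = 0.00029). Neighbours in the order that did not pass were CD200+CD200R1+ MRU and remaining MRU for Nr4a1 (adjusted p = 0.152) and for Nr4a3 (0.229), and CD200+CD200R1+ MRU and CD200R1+ non-MRU for Nr4a3 (0.854). Nr4a1 was lower in remaining MRU than in CD200+ non-MRU (-0.39 ± 0.14, adjusted p = 0.0264), a call lost under 8 of 18 alternatives. It was lost with no filter, without mouse 2, 3, 5 or 6 in remaining MRU, without mouse 5 or 6 in CD200+ non-MRU, and without all libraries of mouse 6 (-0.16, adjusted p = 0.335). With the mouse as a block, Nr4a3 was higher in remaining MRU than in CD200R1+ non-MRU (0.42, adjusted p = 0.0314).

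EGR factors are zinc finger proteins induced by the MAP kinase pathway. Egr2 had 93.7, 65.7, 88.3, 69.5 and 61.9 CPM in the CD200+CD200R1+ MRU libraries, 66, 42.5, 48.1, 59.4 and 46.4 in those of remaining MRU, 32.6, 22.8, 27.7, 32.5 and 44 in CD200+ non-MRU libraries and 83.1, 72.3, 89.5, 97.5 and 94.1 in CD200R1+ non-MRU libraries. CD200+ non-MRU was lowest, 2.73-fold below CD200R1+ non-MRU with no overlap (log2 fold change -1.45 ± 0.17, adjusted p = 3.82e-07). Remaining MRU was lower than CD200R1+ non-MRU (-0.73 ± 0.17, adjusted p = 0.00109), a call lost with library size alone (adjusted p = 0.0961).

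Egr1 was lowest in CD200+ non-MRU too, at 786 ± 94.7 CPM against 1360 ± 352 CPM in CD200R1+ non-MRU (log2 fold change -0.79 ± 0.15, adjusted p = 0.000154). Its call as lower in CD200+CD200R1+ MRU than in CD200R1+ non-MRU (-0.40 ± 0.15, adjusted p = 0.0364) was lost under 10 of 18 alternatives and turned to 0.03 with library size alone. Egr3, at 0.76 to 1.57 CPM by mean, was near the limit of what these depths resolve. Remaining MRU was higher than CD200R1+ non-MRU for Egr3 (1.03 ± 0.41, adjusted p = 0.0433), a call lost under 12 of 18 alternatives, the block by mouse included (adjusted p = 0.0688).

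Myc, a transcription factor that drives cell growth and division, separated the MRU from the non-MRU populations. It had 494, 373, 280, 305 and 347 CPM in the CD200+CD200R1+ MRU libraries, 456, 355, 325, 415 and 351 in those of remaining MRU, 794, 640, 763, 821 and 794 in CD200+ non-MRU libraries and 778, 1020, 679, 1270 and 1070 in CD200R1+ non-MRU libraries. No MRU library reached the lowest non-MRU library. Both MRU populations were lower than both non-MRU populations, by log2 fold changes against CD200R1+ non-MRU of -1.42 ± 0.17 in CD200+CD200R1+ MRU (adjusted p = 5e-07) and -1.34 ± 0.17 in remaining MRU (adjusted p = 1.19e-06). For Fos, the MRU libraries lay above the non-MRU libraries instead.

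The feedback regulators hold the response in check or follow from it. Ier3, a small protein that affects cell survival, had 1410, 1110, 967, 979 and 1350 CPM in the CD200+CD200R1+ MRU libraries, 1600, 1510, 1470, 1500 and 1520 in those of remaining MRU, 554, 638, 552, 470 and 506 in CD200+ non-MRU libraries and 533, 570, 571, 536 and 315 in CD200R1+ non-MRU libraries. Every MRU library was above every non-MRU library, and the log2 fold changes ran from 1.10 ± 0.15 for CD200+CD200R1+ MRU over CD200+ non-MRU to 1.59 ± 0.15 for remaining MRU over CD200R1+ non-MRU (adjusted p = 4.83e-06 and 2.11e-08).

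Socs3, an inhibitor of JAK and STAT signalling by cytokines, had 725, 585, 481, 525 and 600 CPM in the CD200+CD200R1+ MRU libraries, 608, 506, 474, 551 and 583 in those of remaining MRU, 166, 233, 244, 281 and 247 in CD200+ non-MRU libraries and 275, 205, 181, 333 and 181 in CD200R1+ non-MRU libraries. As for Ier3, the MRU libraries lay above all others, by log2 fold changes of 1.21 to 1.31 (adjusted p = 1.75e-06 to 7.35e-06). The 2 MRU populations did not differ detectably for Socs3 (adjusted p = 0.825), nor did the 2 non-MRU populations (0.995).

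Ier5 ran the other way. It had 194, 187, 209, 189 and 152 CPM in the CD200+CD200R1+ MRU libraries, 182, 155, 172, 162 and 206 in those of remaining MRU, 259, 283, 245, 303 and 152 in CD200+ non-MRU libraries and 494, 422, 443, 460 and 237 in CD200R1+ non-MRU libraries. CD200R1+ non-MRU was highest, and remaining MRU was 2.34-fold lower (log2 fold change -1.23 ± 0.18, adjusted p = 9.07e-06). CD200+ non-MRU was also lower than CD200R1+ non-MRU (-0.73 ± 0.18, adjusted p = 0.00189), a call lost with library size alone (adjusted p = 0.16). In the fit blocked by mouse, Ier5 was lower in CD200+CD200R1+ MRU than in CD200+ non-MRU (-0.40, adjusted p = 0.0481).

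Zfp36 encodes tristetraprolin, which binds AU-rich mRNAs and speeds their decay. It had 1180, 1040, 1080, 1040 and 924 CPM in the CD200+CD200R1+ MRU libraries, 1550, 1670, 1630, 1690 and 1540 in those of remaining MRU, 1990, 1950, 1970, 2330 and 2040 in CD200+ non-MRU libraries and 1500, 1810, 1080, 2290 and 1750 in CD200R1+ non-MRU libraries. CD200+CD200R1+ MRU was lowest, 1.95-fold below CD200+ non-MRU (log2 fold change -0.97 ± 0.15, adjusted p = 1.32e-05) and 1.60-fold below CD200R1+ non-MRU (adjusted p = 0.000516, but 0.125 with library size alone). Blocking by mouse, remaining MRU was also lower than CD200+ non-MRU (-0.35, adjusted p = 0.0415).

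The paralog Zfp36l1, another RNA-binding protein of this family, was higher in CD200+CD200R1+ MRU than in CD200R1+ non-MRU (log2 fold change 0.65 ± 0.16, adjusted p = 0.00232). With the mouse as a block it also passed in CD200+ non-MRU over CD200R1+ non-MRU (0.33, adjusted p = 0.00914), in CD200+CD200R1+ MRU over CD200+ non-MRU (0.33, 0.0092) and in remaining MRU over CD200+ non-MRU (0.28, 0.0238). The transcript Gm26669 covers 55.9% of Zfp36l1 exons, with 5 to 34 counts a library against 1406 to 4955 for Zfp36l1, so the level of Zfp36l1 is uncertain to that extent. Dusp5, a nuclear phosphatase of ERK, averaged 121 ± 9.74 CPM in CD200+CD200R1+ MRU and 64.7 ± 23.2 CPM in CD200R1+ non-MRU (adjusted p = 0.0004). The antisense gene AC137853.2 covers 22.1% of Dusp5 exons, so the level of Dusp5 is uncertain too. Btg2, an antiproliferative protein, averaged 770 ± 47.1 CPM in remaining MRU and 484 ± 46.3 CPM in CD200R1+ non-MRU (adjusted p = 7.7e-05). Dusp1, a phosphatase of p38 and JNK, was higher in remaining MRU than in CD200+ non-MRU (0.68 ± 0.24, adjusted p = 0.0275), but not without CD200+ non-MRU of mouse 6 (0.0564). Under the block by mouse, Dusp1 differed among the populations (adjusted p = 0.0497).

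The GADD45 proteins bind stress kinases and slow the cell cycle, and CD200R1+ non-MRU stood high for all 3. Gadd45g had 759, 653, 416, 435 and 572 CPM in the CD200+CD200R1+ MRU libraries, 1030, 982, 983, 1090 and 1000 in those of remaining MRU, 790, 934, 882, 770 and 631 in CD200+ non-MRU libraries and 1700, 1670, 1400, 1870 and 1230 in CD200R1+ non-MRU libraries. No library of another population reached CD200R1+ non-MRU, and CD200+CD200R1+ MRU was 2.77-fold lower (log2 fold change -1.47 ± 0.16, adjusted p = 1.29e-07). Within the MRU gate the log2 fold change of CD200+CD200R1+ MRU over remaining MRU was -0.85 ± 0.16 (adjusted p = 0.00108). The call for remaining MRU against CD200R1+ non-MRU was lost with library size alone (adjusted p = 0.177).

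Gadd45b had 1140, 876, 536, 594 and 803 CPM in the CD200+CD200R1+ MRU libraries, 1330, 941, 990, 1050 and 1000 in those of remaining MRU, 527, 494, 507, 416 and 466 in CD200+ non-MRU libraries and 972, 1070, 1000, 973 and 1130 in CD200R1+ non-MRU libraries. CD200+ non-MRU was lowest and did not overlap with any other population, with a log2 fold change of -1.10 ± 0.16 over CD200R1+ non-MRU (adjusted p = 7.78e-06). With the mouse as a block, CD200+CD200R1+ MRU was lower than CD200R1+ non-MRU (-0.42, adjusted p = 0.0181).

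Gadd45a had 122, 97.4, 61.6, 75.9 and 72.6 CPM in the CD200+CD200R1+ MRU libraries, 110, 81.2, 59.1, 81.9 and 74.4 in those of remaining MRU, 114, 101, 96.6, 129 and 81.2 in CD200+ non-MRU libraries and 142, 145, 156, 146 and 158 in CD200R1+ non-MRU libraries. The CD200R1+ non-MRU libraries were the highest 5 of the 20, and all other populations were lower than them (adjusted p = 0.00066 for CD200+CD200R1+ MRU, 0.000277 for remaining MRU and 0.0164 for CD200+ non-MRU). The first and the last of these calls were lost with library size alone (adjusted p = 0.0622 and 0.657), and the last was lost without CD200+ non-MRU of mouse 6. Remaining MRU was lower than CD200+ non-MRU with the mouse as a block (-0.38, adjusted p = 0.0428). The transcript E230016M11Rik covers 19.1% of Gadd45a exons with 34 to 110 counts a library, against 717 to 1757 for Gadd45a.

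Ppp1r15a, or GADD34, brings a phosphatase to the initiation factor eIF2 and so restores translation after stress. It had 693, 618, 524, 458 and 434 CPM in the CD200+CD200R1+ MRU libraries, 956, 910, 823, 832 and 782 in those of remaining MRU, 856, 834, 789, 871 and 887 in CD200+ non-MRU libraries and 678, 853, 524, 853 and 676 in CD200R1+ non-MRU libraries. CD200+CD200R1+ MRU did not overlap with remaining MRU or CD200+ non-MRU, with log2 fold changes of -0.66 ± 0.14 (adjusted p = 0.00382) and -0.64 ± 0.14 (adjusted p = 0.000889). Its call against CD200R1+ non-MRU (-0.39 ± 0.14, adjusted p = 0.0262) was lost under 10 of 18 alternatives and turned to 0.04 with library size alone.

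Among the heat shock genes, Hspb1 went with the MRU gate. Hspb1 encodes HSP25, a small chaperone that holds unfolding proteins without using ATP, and it had 475, 370, 240, 249 and 285 CPM in the CD200+CD200R1+ MRU libraries, 432, 383, 296, 326 and 301 in those of remaining MRU, 91.5, 161, 98.7, 114 and 90.6 in CD200+ non-MRU libraries and 39.6, 29.8, 27.2, 40.3 and 13.7 in CD200R1+ non-MRU libraries. The MRU libraries were highest, CD200+ non-MRU lay between, and CD200R1+ non-MRU was lowest, with no overlap between these 3 levels. The log2 fold change over CD200R1+ non-MRU was 3.43 ± 0.26 in CD200+CD200R1+ MRU (adjusted p = 6.22e-10), 3.53 ± 0.27 in remaining MRU (4.78e-10) and 1.88 ± 0.25 in CD200+ non-MRU (2.02e-06). The pseudogene Hsp25-ps1 shares 48.8% of the 50-base windows of Hspb1, and it averaged 189 ± 66.1 CPM for CD200+CD200R1+ MRU, 209 ± 37.3 for remaining MRU, 65.5 ± 16.6 for CD200+ non-MRU and 16.5 ± 6.94 for CD200R1+ non-MRU. The levels of Hspb1 and its pseudogene are thus uncertain singly, and both ran in the same order.

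Hspa8, the constitutive HSC70 chaperone, had 68.1, 59.5, 54.1, 51.6 and 77.5 CPM in the CD200+CD200R1+ MRU libraries, 101, 107, 102, 97.9 and 103 in those of remaining MRU, 61, 56.8, 67.1, 62.3 and 83.9 in CD200+ non-MRU libraries and 75.2, 99.2, 78.2, 99.3 and 118 in CD200R1+ non-MRU libraries. Remaining MRU lay above CD200+CD200R1+ MRU and CD200+ non-MRU without overlap, and the log2 fold change of CD200+CD200R1+ MRU over remaining MRU was -0.72 ± 0.14 (adjusted p = 0.00149). Both CD200+CD200R1+ MRU and CD200+ non-MRU were lower than CD200R1+ non-MRU, calls lost with library size alone (adjusted p = 0.277 and 0.651). Other genes hold 38.6% of the 50-base windows of Hspa8, so its level is uncertain.

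Dnajb1, the HSP40 co-chaperone that feeds clients to HSP70, had 430, 305, 255, 299 and 346 CPM in the CD200+CD200R1+ MRU libraries, 603, 478, 493, 548 and 530 in those of remaining MRU, 455, 445, 417, 497 and 753 in CD200+ non-MRU libraries and 632, 735, 347, 727 and 573 in CD200R1+ non-MRU libraries. CD200+CD200R1+ MRU was lowest, at a log2 fold change of -0.88 ± 0.19 over CD200R1+ non-MRU (adjusted p = 0.000638). Its call against CD200+ non-MRU (-0.65 ± 0.19, adjusted p = 0.00776) was lost without CD200+ non-MRU of mouse 6 (0.0826 at the highest over all alternatives).

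Hsp90aa1, the inducible HSP90, had 429, 374, 316, 312 and 446 CPM in the CD200+CD200R1+ MRU libraries, 380, 334, 317, 320 and 360 in those of remaining MRU, 252, 243, 238, 223 and 320 in CD200+ non-MRU libraries and 310, 328, 245, 285 and 349 in CD200R1+ non-MRU libraries. CD200+ non-MRU was lowest by mean, and only its library of mouse 6 overlapped with the MRU libraries (log2 fold change of CD200+CD200R1+ MRU over CD200+ non-MRU 0.56 ± 0.13, adjusted p = 0.00136). In the fit blocked by mouse, Hsp90aa1 was also lower in CD200+ non-MRU than in CD200R1+ non-MRU (-0.25, adjusted p = 0.0248) and higher in CD200+CD200R1+ MRU than in CD200R1+ non-MRU (0.30, adjusted p = 0.00975). Other genes hold 47.5% of its 50-base windows.

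The remaining heat shock genes, Hspa1a, Hspa1b and Hsph1, passed neither among populations nor among mice, and their libraries were singled out after the values had been seen. Hspa1a and Hspa1b encode the inducible HSP70, and Hsph1 encodes HSP110, which helps HSP70 release its nucleotide. The stretch of 250 bases before the RefSeq start of each (GRCm38.p6, the C57BL/6J reference, minus strand for these 3) is printed because these genes were high together in mouse 6, with that of Hspb1 (plus strand), which was low there. Capitals mark a heat shock element, searched as GAANNTTC or TTCNNGAA. The stretches lie at chr17:34972157-34972406, chr17:34959239-34959488, chr5:149636337-149636586 and chr5:135887669-135887918.
Hspa1a: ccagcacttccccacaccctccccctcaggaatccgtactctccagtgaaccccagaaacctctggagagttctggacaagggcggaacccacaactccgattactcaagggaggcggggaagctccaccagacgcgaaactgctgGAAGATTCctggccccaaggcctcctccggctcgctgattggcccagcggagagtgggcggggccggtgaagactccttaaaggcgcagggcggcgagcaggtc
Hspa1b: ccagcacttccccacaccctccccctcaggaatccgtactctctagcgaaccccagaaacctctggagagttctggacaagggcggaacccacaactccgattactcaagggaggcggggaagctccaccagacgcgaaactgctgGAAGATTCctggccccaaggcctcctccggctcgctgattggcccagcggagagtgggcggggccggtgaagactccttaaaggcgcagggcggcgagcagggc
Hsph1: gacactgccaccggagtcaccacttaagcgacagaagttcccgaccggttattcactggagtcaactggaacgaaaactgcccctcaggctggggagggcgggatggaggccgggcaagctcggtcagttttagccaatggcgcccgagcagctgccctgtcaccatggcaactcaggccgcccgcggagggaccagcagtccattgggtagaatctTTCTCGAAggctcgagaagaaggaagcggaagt
Hspb1: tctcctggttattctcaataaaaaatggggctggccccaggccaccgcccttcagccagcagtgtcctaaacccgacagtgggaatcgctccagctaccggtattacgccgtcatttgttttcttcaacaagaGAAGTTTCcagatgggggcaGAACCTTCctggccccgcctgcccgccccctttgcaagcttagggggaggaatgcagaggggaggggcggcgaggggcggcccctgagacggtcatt
The Hspa1a and Hspa1b stretches differ at 3 of 250 bases, and 58.8% of the 50-base windows of Hspa1a recur in Hspa1b, so reads of the 2 genes may be split between them. RefSeq promoters were matched for 29 of the 36 genes. A heat shock element lay in the 250 bases before at least 1 start of 7 of the 29, which were Fosl2, Jun, Egr2, Hspa1a, Hspa1b, Hspb1 and Hsph1, and in 14.5% of 27025 genes. Each match is a run of letters, not a shown binding site.

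Hspa1a had 59.2, 50.2, 60.4, 50.6 and 68.2 CPM in the CD200+CD200R1+ MRU libraries, 63.4, 55.2, 56.1, 57.4 and 108 in those of remaining MRU, 20.7, 29.1, 25.7, 31.9 and 100 in CD200+ non-MRU libraries and 80, 30.5, 41.1, 56.2 and 78.2 in CD200R1+ non-MRU libraries. Mouse 6 was highest in 3 of the 4 populations and second in CD200R1+ non-MRU, behind mouse 2. The sum of Hspa1a and Hspa1b was 193 CPM in CD200+CD200R1+ MRU of mouse 6 and 139 to 169 in the other mice, 239 and 131 to 154 in remaining MRU, 238 and 62 to 92.1 in CD200+ non-MRU, and 182 and 85.1 to 191 in CD200R1+ non-MRU. This sum does not depend on how reads were split between the genes. It may miss reads that match both, since their handling is not given in the sources used here.

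Hsph1 had 61.1, 50.6, 62.1, 59.7 and 82.7 CPM in the CD200+CD200R1+ MRU libraries, 53.5, 42.8, 49.1, 29.1 and 73 in those of remaining MRU, 40.6, 24, 26.4, 45.1 and 122 in CD200+ non-MRU libraries and 60.1, 38.1, 35.4, 20.7 and 56.9 in CD200R1+ non-MRU libraries. Mouse 6 again stood highest in 3 of the populations. As deviations from the population mean, mouse 6 averaged 0.76 on the log2 scale for Hspa1a, 0.61 for Hspa1b and 0.76 for Hsph1, above 0 in all 4 populations. Hspa8 and Hsp90aa1 averaged 0.26 and 0.22 in mouse 6, also above 0 in all 4 populations, whereas Hspb1 averaged -0.40 and was below 0 in all 4.

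Among the 5 mice, 2 of the 36 genes differed, against 1.29% of all genes tested. They were Fosl1 (adjusted p = 0.0116; 0.0543 without mouse 6) and Zfp36l1 (0.0412, lost under 18 of 26 alternatives). Hspa1a and Hspa1b (adjusted p = 0.0831 each) and Hsph1 (0.088) did not pass. With no filter on low counts and with DESeq2, 8 genes each passed, Hspa1a, Hspa1b and Hsph1 in both, limma voom gave 4, and without mouse 6 none passed by edgeR. Shares of all genes under these other fits were not counted, so the larger counts cannot be set against a background. Fosl1 averaged 104 and 112 CPM in mice 2 and 3 and 54.3 to 68.9 CPM in mice 4 to 6. Jund and Maff were lowest in mouse 6, at deviations of -0.65 and -0.61 on the log2 scale, below 0 in all 4 populations.

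Mouse 6 also entered the comparison of populations. Without its CD200+ non-MRU library, Hspa1a, Hspa1b and Hsph1 differed among the populations (adjusted p = 0.000685, 0.000896 and 0.028, against 0.302, 0.197 and 0.501 with it). Jund passed as well (0.0305, against 0.112). Blocking by mouse, Hspa1a (adjusted p = 0.0311) and Hspa1b (0.0152) passed too. Relative to CD200+ non-MRU, that fit put Hspa1a higher by 0.67 on the log2 scale for CD200+CD200R1+ MRU (adjusted p = 0.0301) and 0.84 for remaining MRU (0.00917). For Hspa1b the same values were 0.76 for CD200+CD200R1+ MRU (adjusted p = 0.00388) and 0.53 for remaining MRU (0.0354). Hsph1 was higher in CD200+CD200R1+ MRU than in CD200R1+ non-MRU (0.64, adjusted p = 0.0489). In mouse 6 the mitochondrial share was the lowest of each population, at 3.88%, 3.19%, 2.55% and 1.96%, and its part in these values was not tested.

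**Figure D5:**
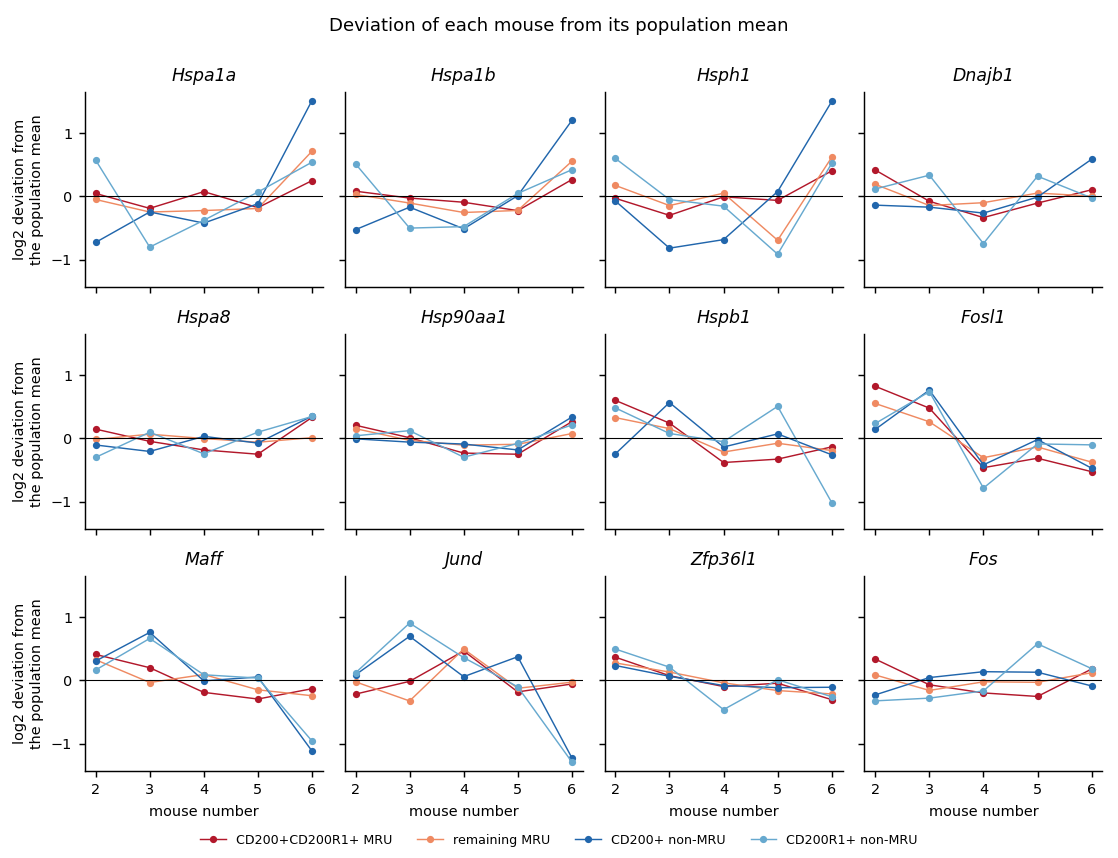
Log2 deviation of each library from the mean of its population, by mouse (x axis), for 12 genes, with 1 line per population. Hspa1a, Hspa1b and Hsph1 are above 0 in mouse 6 in all 4 populations, by means of 0.76, 0.61 and 0.76, and Jund and Maff are below it.

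Further genes of these pathways came from lists written beside the set. Of 20 other heat shock and chaperone genes, 4 differed among the mice (20%, against 1.29% of all genes tested). They were Hspe1 (adjusted p = 0.0104), Cacybp (0.0244), Hspd1 (0.0265) and Ahsa1 (0.0372). Hspd1 and Hspe1 encode the mitochondrial chaperonin and its lid, and Ahsa1 activates HSP90. All 4 were above the population mean in mouse 6 in all 4 populations, by 0.57 for Hspd1, 0.61 for Hspe1, 0.45 for Cacybp and 0.43 for Ahsa1 on the log2 scale. Of 15 genes of the integrated stress and unfolded protein response, Sdf2l1 (adjusted p = 0.0201) and Calr (0.0437), both of the endoplasmic reticulum, passed too (13.3%). Their deviations were 0.50 and 0.44 in mouse 6. Of the other lists, none of 30 dissociation and serum response genes, 14 MAP kinase phosphatase and Sprouty genes and 15 AP-1 partners and SRF cofactors differed among the mice. The 6 genes that passed were named after their values had been seen.

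Within the MRU gate, 7 of 30 other dissociation and serum response genes were lower in CD200+CD200R1+ MRU (23.3%, against 6.64% of all genes tested), with a median log2 fold change of -0.29 over the list. The largest changes were of Id1 (-2.86 ± 0.23, adjusted p = 2.49e-08), an inhibitor of basic helix-loop-helix factors, Irf1 (-1.24 ± 0.16, 1.44e-05), an interferon factor, and Nfkbia (-1.13 ± 0.10, 1.24e-07), the inhibitor of NF-kappa-B. Of the 15 integrated stress and unfolded protein response genes, 4 were lower (26.7%), led by Ddit4 (-0.98 ± 0.22, adjusted p = 0.0051), Xbp1 (-0.68 ± 0.15, 0.00478) and Herpud1 (-0.67 ± 0.17, 0.0143), with Dnajb9 (-0.47 ± 0.11, 0.00737). Spry4, a brake on receptor tyrosine kinases, was the 1 of 14 MAP kinase phosphatase and Sprouty genes that passed (-2.19 ± 0.26, adjusted p = 3.8e-06), a share of 7.14% that is near that of all genes, 8.26%. Of 15 AP-1 partners and SRF cofactors, 2 were higher and 2 lower. Among them Elk3 (-1.44 ± 0.19, adjusted p = 1.48e-05) and Mkl2 (-1.16 ± 0.17, 7.74e-05) were lower and Maf (0.92 ± 0.19, 0.00247) was higher. None of the 20 other heat shock and chaperone genes passed by edgeR, limma voom or DESeq2, and at an unadjusted p below 0.05 edgeR had 2 higher and 2 lower. Outside the gate, in CD200+ non-MRU against CD200R1+ non-MRU (all genes 52.5%), 22 of the 30 dissociation and serum response genes passed, 3 higher and 19 lower. So did 12 of the 15 AP-1 partners, 1 higher and 11 lower, 10 of the 14 MAP kinase phosphatase and Sprouty genes, 4 higher and 6 lower, 9 of the 20 chaperones, 4 higher and 5 lower, and 8 of the 15 stress response genes, 2 higher and 6 lower. In CD200+CD200R1+ MRU against CD200+ non-MRU (all genes 48.5%), the counts higher and lower were 12 and 9 for dissociation and serum response genes, 9 and 1 for AP-1 partners, 5 and 2 for phosphatase and Sprouty genes, 4 and 5 for chaperones and 1 and 7 for stress response genes. The endothelial, pericyte, adipocyte and macrophage markers given above moved with the comparison within the MRU gate, and their part in the lists' changes there was not tested.

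In the authors' deposited table, which holds 4 of these comparisons, 9 of the 36 genes had an adjusted p below 0.05 in CD200+CD200R1+ MRU against remaining MRU, all lower. The authors' deposited table had 20 genes in CD200+CD200R1+ MRU against CD200+ non-MRU, 11 higher and 9 lower, and 19 in CD200+CD200R1+ MRU against CD200R1+ non-MRU, 10 higher and 9 lower. Between the non-MRU populations the authors' deposited table runs as CD200R1+ non-MRU over CD200+ non-MRU, with 15 genes, 9 positive and 6 negative. Shares of all genes called in that table were not counted, so these counts stand without a background.

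Promoter letters of 2 genes that fell within the MRU gate and hold a motif show 2 of the other motifs searched. Ppp1r15a (minus strand, chr7:45526269-45526518, GRCm38.p6, from RefSeq) holds a cyclic AMP response element, TGACGTCA, in capitals, as did 4 of the 29 matched genes and 1.77% of all genes. Zfp36 (minus strand, chr7:28379229-28379478) holds a CArG box, the motif bound by serum response factor, in capitals, as did 3 of the 29 and 1.62% of all genes. Gadd45g, Dnajb1, Fosl2, Atf3 and Junb also fell within the MRU gate, and their matched promoters held neither of these motifs. Ier2 and Hspa8 fell too but had no matched promoter. The other holders were Maff, Dusp1 and Btg2 for the cyclic AMP response element and Egr2 and Dusp5 for the CArG box. None of them was called lower there in the reported fit. The AP-1 site TGANTCA was in 1 of the 29, Zfp36l1, and in 7.82% of all genes. All motifs were read on both strands, and a match says nothing of use in these cells.
Ppp1r15a: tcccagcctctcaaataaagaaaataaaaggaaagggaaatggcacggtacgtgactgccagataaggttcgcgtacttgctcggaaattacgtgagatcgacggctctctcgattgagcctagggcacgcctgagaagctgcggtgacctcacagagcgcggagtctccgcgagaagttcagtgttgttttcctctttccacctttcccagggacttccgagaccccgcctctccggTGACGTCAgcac
Zfp36: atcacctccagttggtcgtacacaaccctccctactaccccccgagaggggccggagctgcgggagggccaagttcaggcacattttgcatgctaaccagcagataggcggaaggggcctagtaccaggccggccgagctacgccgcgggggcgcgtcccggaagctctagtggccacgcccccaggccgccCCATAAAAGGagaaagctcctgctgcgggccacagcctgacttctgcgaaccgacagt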

How the data were processed

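RNA of 20 libraries was measured by RNA-seq. The submitters' processing notes name GRCm38 as the build and list HTSeq, STAR 2.4.2a, DESeq2 and cutadapt. The sources used here give no annotation, strand setting or filter. The deposited counts are whole reads per gene, not normalized, per the file headers. The deposited signal columns, counts normalized to library size per the file headers, were not used. The authors deposited log2 fold changes, and a p-value with its adjusted value, for 4 comparisons, and these were only counted.

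From the counts, edgeR 4.0.16 in R 4.3.3 fitted 1 quasi-likelihood model to all 20 libraries after filterByExpr and TMM. Population was its only term, so the reported calls leave out the pairing of libraries by mouse. Benjamini-Hochberg adjustment ran over 17236 genes. With the mouse as a block, 32 of the 36 genes differed among the populations, against 28 as reported. Within the MRU gate that fit called 12 lower and 1 higher, against 9 and 0. The F test among mice added the mouse to the model. Deviations by mouse are log2(CPM + 0.5). DESeq2 1.42.0 and limma 3.58.1 (voom) were alternatives. The fit was tested on simulated counts, with changes put into 1 population or a single mouse. Changes of 1.5-fold were recovered for 26% of genes within the MRU gate, 16% among populations and 6% among mice. At 2-fold these were 74%, 76% and 56%. False calls numbered 10, 11 and 4. At 4-fold the share recovered was 92% in each, and at 8-fold 100%, 100% and 98%. Changes were put into 200 of 17236 genes, fewer than were called between the populations here. Changes of 2-fold or less can thus often go uncalled, and some larger ones too.

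Same-numbered libraries come from the same mouse, per the labels. Within the MRU gate, deviations of same-mouse libraries correlated at 0.133 to 0.264, and in the other 5 comparisons at 0.00138 to 0.206. Replicates differed beyond sampling noise (chi-square per gene 12.34 to 80.8 in 40 pairs), so each library counted once. Counts had no molecular identifiers that the sources name.

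The genes and lists were chosen with earlier results of these data known. Values in every library are given for up to 4 genes a role, those with the smallest adjusted p among populations and at least 10 CPM, and, chosen after their values were seen, for Hspa1a, Hsph1 and, within the MRU gate, Ier2 and Atf3. Of each other list, up to 3 genes past the threshold with the largest change and at least 10 CPM are named, and Dnajb9 and Maf were added after seeing their values. The values of 1 gene of these lists are not reported here, and of the 5 comparisons outside the MRU gate, the lists are given for 2, by counts alone. Exon lengths, overlaps and 50-base windows shared with other genes come from GENCODE M21 (GRCm38).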

Additional observations from a re-analysis of the deposited data

Results flagged for a closer look

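Gaps within a population were tested in 148 sets of 5 libraries, of which 16 had 1 library set far apart from its 4 neighbours. A chance rate of about 1 in 20 holds only for independent sets of normally distributed values. These sets share the same libraries, and no rate over all genes was counted, so the 16 cannot be set against chance.

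Mouse 6 accounted for 8 of them. In CD200+ non-MRU, mouse 6 had 100 CPM of Hspa1a (the others 20.7 to 31.9), 138 CPM of Hspa1b (41.3 to 60.2), 122 CPM of Hsph1 (24 to 45.1), 753 CPM of Dnajb1 (417 to 497) and 138 CPM of Nr4a2 (95.6 to 107). In remaining MRU, mouse 6 had 108 CPM of Hspa1a (55.2 to 63.4). In CD200R1+ non-MRU, mouse 6 was lowest, with 315 CPM of Ier3 (533 to 571) and 237 CPM of Ier5 (422 to 494).

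Mouse 2 was highest in remaining MRU for Nr4a3 at 146 CPM (128 to 133), Dusp1 at 2990 CPM (2480 to 2570) and Gadd45b at 1330 CPM (941 to 1050). In CD200+CD200R1+ MRU, mouse 2 gave the largest share of counts to the 36 genes, 3.06% (2.37% to 2.57%). Mouse 5 was highest in CD200R1+ non-MRU for Jun at 814 CPM (536 to 605) and Atf3 at 1100 CPM (711 to 822), and in CD200+ non-MRU for Zfp36 at 2330 CPM (1950 to 2040). Mouse 4 was highest in CD200+CD200R1+ MRU for Jund at 588 CPM (366 to 421).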

How the results depend on the processing

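Over all genes of the set, comparisons and alternatives, 3888 log2 fold changes were set against those reported, of which 3625 stayed on the same side of the threshold, 153 newly passed and 104 no longer passed. Signs turned for 6 values that passed in at least 1 of the 2 fits, and these are left out of the counts above, while 108 of the 3625 turned sign without passing in either fit. The 6 all came from library size alone, against CD200R1+ non-MRU. They were Egr1 (0.0304), Junb (0.339) and Ppp1r15a (0.0359) in CD200+CD200R1+ MRU, Zfp36 (0.336) in remaining MRU, and Jun (0.0913) and Socs3 (0.428) in CD200+ non-MRU, on the log2 scale. With library size alone the counts higher and lower against CD200R1+ non-MRU were 18 and 5 for CD200+CD200R1+ MRU, 21 and 3 for remaining MRU, and 13 and 6 for CD200+ non-MRU.

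For remaining MRU against CD200+ non-MRU, the 3 genes lower became 1 with no filter, 5 with library size alone, DESeq2, limma voom or only the libraries compared, 6 with the mouse as a block, and 1 to 2 leaving out single libraries. Within the MRU gate, the count higher went to 1, which was Egr2, with DESeq2 size factors, library size alone, DESeq2, limma voom, the block, only the libraries compared or without mouse 6, and was 0 to 1 leaving out single libraries. Genes differing among the mice numbered 8 with no filter, 8 with DESeq2, 4 with limma voom, 0 without mouse 6 and 1 to 3 leaving out single libraries. Shares of all genes called were counted for the reported fit alone, so counts under the alternatives have no such share beside them. Leaving out mouse 6 was chosen after seeing the data. The block by mouse changed no other call than those named in the report. The cause of these changes was not tested.

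At these depths 3 counts are the limit of detection for a gene at 0, for counting error only.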
